A study of Mus musculus with 12 samples.

Results

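The genes described here are 8 leukocyte adhesion molecules and selectins: Vcam1, Icam1, Icam2, Alcam, Madcam1, Sele, Selp and Selplg. They were taken by gene symbol from the 46983 rows of the nuclear RNA count table. Vcam1 was selected on its higher level in YAP5SA, so its values are given as a description with no test. The other 7 are its relatives or partners in function. A filter on low counts kept 17715 genes, among them 7 of the 8, and left out Madcam1.

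The data are RNA-seq counts from nuclei of adult mouse cardiomyocytes. The YAP5SA group came from Yap5SA+/tg; Myh6-MCM mice given tamoxifen, and the control group from Myh6-MCM mice, also given tamoxifen, without the transgene. Both groups therefore carried the Myh6-MCM allele, a tamoxifen-inducible Cre recombinase under the Myh6 promoter, which is active in cardiomyocytes. YAP5SA is YAP, the co-activator at the end of the Hippo pathway, with its inhibitory serines changed to alanine so that Hippo kinases cannot restrain it. There were 2 libraries per group. Nuclei had been captured on beads by their PCM1, a protein found at the nuclear envelope of cardiomyocytes. Not given in the sources used here are the number of animals per library and the time after tamoxifen.

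Total counts were 15012122 and 12806949 in YAP5SA replicates 1 and 2, against 10927396 and 7850661 in control replicates 1 and 2. Levels are given in CPM, counts scaled by the TMM-adjusted library total to the usual per-megaread unit. The spread between replicates was wider in control, with a biological coefficient of variation of 8.44% between the YAP5SA libraries and 34.3% between the control libraries. All 10 cardiomyocyte markers were detected, with a summed level of 22926 and 24088 CPM in YAP5SA and 32030 and 64565 CPM in control. Without Ttn, the most abundant of them, the sums were 7425 and 7410 CPM in YAP5SA and 12129 and 16416 CPM in control. Yap1 measured 168 and 161 CPM in YAP5SA and 138 and 166 CPM in control, and whether reads of the transgene were counted under it is not known. In bulk nuclear RNA, fewer nuclei of a cell type and less RNA per nucleus cannot be told apart.

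Leukocytes leave the blood in steps that these molecules serve. Selectins on activated endothelium let leukocytes roll by binding sugars on carriers such as PSGL-1, and endothelial members of the immunoglobulin superfamily then hold them firmly by binding leukocyte integrins. Several of these genes are induced by inflammatory cytokines through NF-kB. Some are also made outside endothelium: VCAM1 is needed for the epicardium to form in the mouse embryo, and both VCAM1 and ALCAM are used as surface markers of developing cardiomyocytes.

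Vcam1 was 5.92-fold as high in YAP5SA as in control, and among the other 6 tested members Alcam and Icam1 rose. The selectin ligand gene Selplg, at 2.46-fold higher, missed the threshold (edgeR quasi-likelihood test, Benjamini-Hochberg adjusted p = 0.0537). The endothelial selectins Sele and Selp and the endothelial Icam2 did not pass either, and Icam2 had a negative fold change. The threshold was an adjusted p of 0.05 over all 17715 tested genes. Among these, 553 genes, or 3.12%, were called higher and 177, or 0.999%, were called lower, beside which stand 2 higher and 0 lower of the 6 other members. At an unadjusted p under 0.05 the members numbered 3 and 1, beside 12.7% higher and 10.9% lower of all tested genes. DESeq2 called 3 of them higher and 0 lower, beside 5.72% and 2.82% of the genes to which it gave an adjusted p. The median log2 fold change of these 6 was 0.81, against -0.06 over all tested genes. Both YAP5SA libraries lay above both control libraries for 4 of the 6 and below them for 1, an arrangement found upward in 28.1% and downward in 28.3% of all tested genes.

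**Figure D1:**
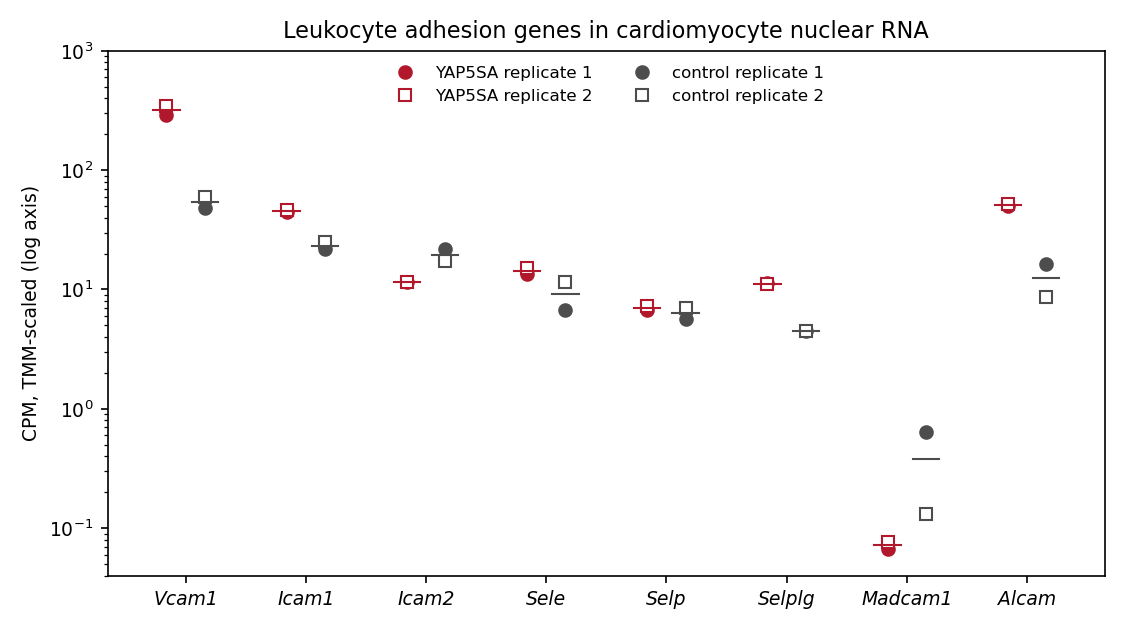
CPM of the 8 genes in each library on a log axis, with YAP5SA in red and control in grey. Circles are replicate 1, squares replicate 2 and bars the group mean. Both YAP5SA libraries of Vcam1, 292 and 345 CPM, lie above its control libraries, 48.4 and 59.2 CPM. Among the genes that passed the filter, only Selp had overlapping groups. Madcam1 had 1 count in each YAP5SA library and 1 in control replicate 2, too few to place its groups apart.

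Vcam1 encodes vascular cell adhesion molecule, the immunoglobulin-family ligand of the integrin formed by Itga4 and Itgb1. The gene lies on the minus strand of chromosome 3 (116109949 to 116129688, mm10), with 10 exon blocks and 8870 exonic bases. Its counts were 4338 and 4537 in the YAP5SA libraries and 534 and 448 in the control libraries. In CPM these were 292 and 345 in YAP5SA, against 48.4 and 59.2 in control, so both YAP5SA libraries stood far above both control libraries. The group means were 318 ± 36.9 CPM in YAP5SA and 53.8 ± 7.67 CPM in control (SD, n = 2 each), a log2 fold change of 2.57 with a standard error of 0.209. The antisense gene Gm43109 shares 61 exonic bases with Vcam1, 0.69% of its exons, and had 4 and 6 counts in the YAP5SA libraries and 0 and 2 in the control libraries. The log2 fold change ran from 2.43 without control replicate 1 to 2.76 without control replicate 2.

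Alcam encodes activated leukocyte cell adhesion molecule, which binds CD6 on T cells and also binds itself. It spans 205079 bases of the minus strand of chromosome 16 (52248996 to 52454074). Alcam had 748 and 685 counts in YAP5SA and 179 and 65 in control. On the CPM scale both YAP5SA libraries were close together at 50.4 and 52.0, against 16.2 and 8.59 in control, so the control libraries differed from each other 1.89-fold while the groups stayed apart. Alcam rose, with a log2 fold change of 2.03 (SE 0.317; edgeR adjusted p = 0.0394). Leaving out control replicate 1 gave 2.58 and leaving out control replicate 2 gave 1.70. The call was lost without YAP5SA replicate 1 (edgeR adjusted p = 0.0921) and without YAP5SA replicate 2 (edgeR adjusted p = 0.223), while the fold change stayed at 2.09 and 2.04 on the log2 scale.

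Icam1 encodes intercellular adhesion molecule, the ligand of the leukocyte integrins that contain Itgb2. It is on the plus strand of chromosome 9 (21015985 to 21028817). Icam1 counts were 658 and 615 in YAP5SA and 240 and 188 in control, or 44.3 and 46.7 CPM in YAP5SA against 21.7 and 24.8 CPM in control. The groups did not overlap, and replicates differed little within either group. Icam1 rose 1.96-fold (log2 fold change 0.97, SE 0.172, edgeR adjusted p = 0.0480), which is close to the threshold. The call was lost without YAP5SA replicate 1 (edgeR adjusted p = 0.345) and without YAP5SA replicate 2 (edgeR adjusted p = 0.542), with log2 fold changes of 1.03 and 0.95. The antisense gene Gm47079 overlaps 11.7% of the exonic bases of Icam1, and the strand setting of the counting is not stated.

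Icam2 encodes a second ligand of the same integrins, which resting endothelium carries. It is a gene of the minus strand of chromosome 11 (106377656 to 106388075). Its counts were 171 and 151 in YAP5SA and 239 and 130 in control. Scaled for depth, both YAP5SA libraries were at 11.5 CPM, below both control libraries at 21.6 and 17.2 CPM. The log2 fold change was -0.76 (SE 0.215, 95% interval -1.30 to -0.22) and missed the threshold over all genes (edgeR adjusted p = 0.117). It was -0.57 without control replicate 1 and -0.88 without control replicate 2. It was -0.73 without YAP5SA replicate 1 and also without YAP5SA replicate 2. Icam2 passed only in the fits without a control replicate, where the spread comes from the YAP5SA pair alone. It missed under the other 9 of 11 alternatives. The median log2 fold change of 12 endothelial markers was -0.84, and its part in the Icam2 values was not tested.

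Madcam1, the addressin of gut and lymphoid vessels (plus strand of chromosome 10, 79664559 to 79668537), was almost absent. It had 1 count in each YAP5SA library, against 7 and 1 in the control libraries. The 7 counts of control replicate 1 are most of what was seen. The ratio of summed counts, control over YAP5SA and scaled for depth, was 6.01 with an exact 95% counting interval of 1.20 to 58.1, which covers counting error only. Madcam1 was not tested.

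Sele encodes E-selectin, which activated endothelium makes newly and which slows leukocytes to rolling. Selp encodes P-selectin, which endothelium and platelets store and release to the surface. The genes lie near each other on the plus strand of chromosome 1 (Sele 164048234 to 164057677, Selp 164115264 to 164150026). Sele had 201 and 200 counts in YAP5SA and 75 and 88 in control, or 13.5 and 15.2 CPM in YAP5SA against 6.79 and 11.6 CPM in control. The groups did not overlap, but control replicate 2 reached 1.71 times control replicate 1. The log2 fold change of Sele was 0.65 (SE 0.313, 95% interval -0.13 to 1.44, edgeR adjusted p = 0.279). It was 0.31 without control replicate 1 and 1.11 without control replicate 2. Sele passed only in the latter fit, where the spread comes from the YAP5SA pair alone.

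Selp had 100 and 95 counts in YAP5SA and 62 and 53 in control. In CPM it was at 6.74 and 7.21 in YAP5SA and at 5.61 and 7.01 in control, so that control replicate 2 lay between the YAP5SA libraries. Its log2 fold change was 0.15 (95% interval -0.54 to 0.84, edgeR adjusted p = 0.782). Gm16587 and Gm16548, on the opposite strand, overlap exons of Selp and had at most 1 count in any library. The intervals of both Sele and Selp include 0 and also values as high as 0.84 on the log2 scale.

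Selplg encodes PSGL-1, the sugar-bearing carrier on leukocytes that selectins bind (minus strand of chromosome 5, 113818536 to 113832644). Counts were 167 and 145 in YAP5SA and 50 and 34 in control. In CPM it was at 11.3 and 11.01 in YAP5SA, against 4.53 and 4.49 in control, the closest replicates of any member in control. The log2 fold change was 1.30 (SE 0.248, 95% interval 0.68 to 1.92). Without control replicate 1 it was 1.32 and without control replicate 2 it was 1.33. Selplg passed in those fits, where the spread comes from the YAP5SA pair alone. Selplg did not pass without YAP5SA replicate 1 or without YAP5SA replicate 2, at 1.31 and 1.34. DESeq2 called it (adjusted p = 0.0177), and in all it passed under 4 of the 11 alternatives and missed under 7. The median log2 fold change of 14 macrophage and monocyte markers was 1.22, and its part in the Selplg values was not tested.

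**Figure D2:**
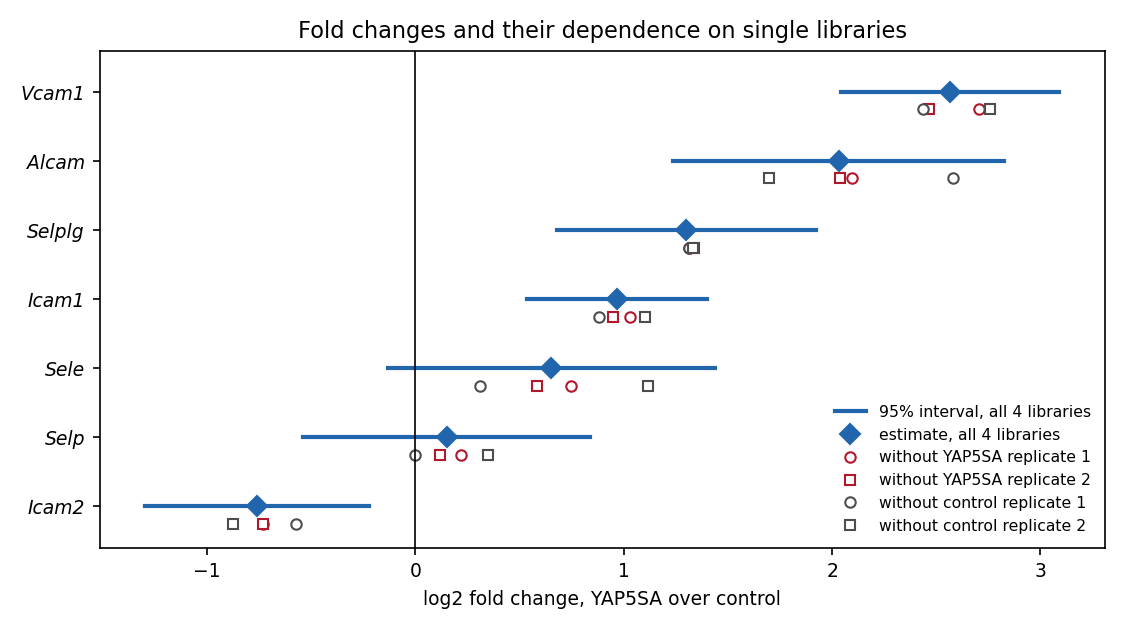
Log2 fold change, YAP5SA over control, of the 7 members that passed the filter. Diamonds and bars are the edgeR estimate and its 95% interval with all 4 libraries, and open symbols are estimates with 1 library left out. Vcam1 was picked for its rise, so its interval is a description and not a test. Alcam ranged from 1.70 to 2.58 and Sele from 0.31 to 1.11 over the fits that left out a library, while Selplg stayed between 1.31 and 1.34.

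Promoter windows of the members that rose under test, Alcam and Icam1, are shown beside that of Sele, which like Icam1 is a known NF-kB target and did not pass. The RefSeq promoter table (GRCm38.p6, the assembly called mm10) held 5 of the 8 genes; Vcam1, Icam2 and Selplg had no entry. Each window runs 5′ to 3′ on the strand of the gene, from 250 bases before to 50 bases after the RefSeq start. It is chr9:21015690-21015989 (plus strand) for Icam1, chr1:164047984-164048283 (plus strand) for Sele and chr16:52453032-52453331 (minus strand) for Alcam. Capitals mark matches on either strand. The TATA box was searched as TATAAA and the core of TEAD sites, through which YAP acts, was searched as CATTCC. The AP-1 site was searched as TGANTCA, the core of kappaB sites as GGANNTTCC and the GC box as GGGCGG, beside the full kappaB consensus.
Icam1: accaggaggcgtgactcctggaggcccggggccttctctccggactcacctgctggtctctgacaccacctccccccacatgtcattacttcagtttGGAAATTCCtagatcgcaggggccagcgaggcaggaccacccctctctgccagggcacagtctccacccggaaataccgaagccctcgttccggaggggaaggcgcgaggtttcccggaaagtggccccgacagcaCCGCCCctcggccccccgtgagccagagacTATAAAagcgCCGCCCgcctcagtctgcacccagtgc
Sele: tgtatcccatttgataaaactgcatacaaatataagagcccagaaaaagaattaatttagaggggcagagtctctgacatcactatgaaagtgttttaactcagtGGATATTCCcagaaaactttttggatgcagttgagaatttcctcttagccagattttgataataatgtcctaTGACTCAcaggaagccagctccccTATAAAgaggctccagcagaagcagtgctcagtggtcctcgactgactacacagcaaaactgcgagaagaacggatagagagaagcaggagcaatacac
Alcam: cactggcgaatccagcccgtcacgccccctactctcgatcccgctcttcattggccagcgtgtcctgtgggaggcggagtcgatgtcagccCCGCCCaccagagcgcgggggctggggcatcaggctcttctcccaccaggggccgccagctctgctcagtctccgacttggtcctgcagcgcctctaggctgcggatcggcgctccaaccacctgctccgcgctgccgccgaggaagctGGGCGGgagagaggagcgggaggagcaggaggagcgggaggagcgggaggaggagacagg

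The windows differed in kind. Icam1 and Sele each held a TATA box, found in 13.6% of all 32851 promoter windows, and a kappaB core, found in 4.26%. Neither held the full kappaB consensus. The TATA box began 13 bases after the RefSeq start in Icam1 and 49 bases before it in Sele. The kappaB core began 153 bases before the RefSeq start in Icam1 and 145 bases before it in Sele. The GENCODE M21 start of Icam1, 21015985, lies downstream of that TATA box, near the end of the window. Distances in Icam1 therefore depend on which start is taken. Sele also held an AP-1 site 73 bases before the start (7.81% of all windows). Alcam held neither a TATA box nor either kappaB pattern, but 2 GC boxes, as did Icam1 (35.7% of all windows hold at least 1). The GENCODE M21 start of Alcam, 52454074, lies upstream of its window, and the bases around it were not searched. The GC content was 69.7% in Alcam and 64.7% in Icam1, against 41.7% in Sele and a median of 52.7% over all windows. The letters CATTCC (14.7% of all windows) were in none of the windows of these 3 genes, Selp or Madcam1. Selp held an AP-1 site. Madcam1 held 1 kappaB core and 2 matches of the full kappaB consensus (8.46% of all windows), with 1 place matching both. The kappaB core was chosen as a motif after the sequences were seen. These are matches of letters, and no binding was measured.

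Levels were compared between genes only per length, as CPM per kilobase of exon of the GENCODE M21 annotation. Whether intronic reads of this nuclear RNA were counted is not known, and if they were, the order could differ. Alcam has 7121 exonic bases in a span of 205079, and Sele 2912 in 9444. In YAP5SA the order was Vcam1 at 35.9 ± 4.16, Icam1 at 10.4 ± 0.383, Alcam at 7.19 ± 0.1604, Icam2 at 6.04 ± 0.0207, Sele at 4.93 ± 0.399, Selplg at 2.61 ± 0.04004, Selp at 1.58 ± 0.07625 and Madcam1 at 0.0499 ± 0.00421 CPM per kilobase (SD, n = 2 each). No neighbours in that order overlapped between their libraries. In control Icam2 came first at 10.2 ± 1.66 CPM per kilobase, followed by Vcam1 at 6.06 ± 0.865, Icam1 at 5.34 ± 0.505, Sele at 3.16 ± 1.18, Alcam at 1.74 ± 0.757, Selp at 1.43 ± 0.223, Selplg at 1.06 ± 0.00567 and Madcam1 at 0.267 ± 0.247 (SD, n = 2 each). There the libraries of Vcam1 overlapped those of Icam1, and the libraries of Alcam overlapped those of Selp. Icam2, which had the highest level of the group in control, had rank 4 in YAP5SA.

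**Figure D3:**
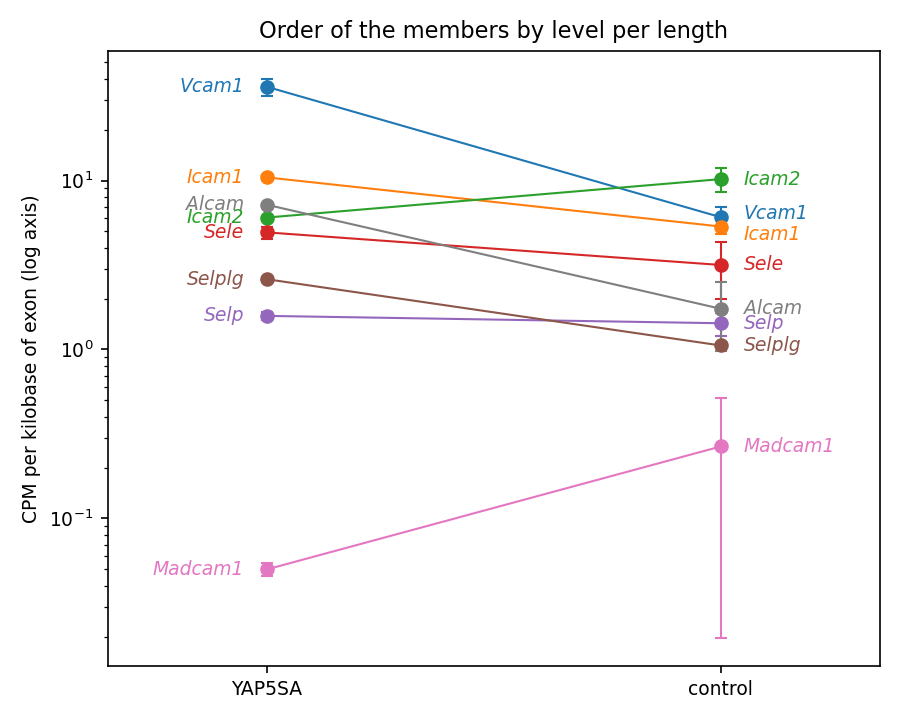
Mean level of each gene in CPM per kilobase of exon on a log axis, YAP5SA on the left and control on the right, with SD bars over 2 libraries. Vcam1 was at 35.9 in YAP5SA and 6.06 in control, and Icam2 at 6.04 in YAP5SA and 10.2 in control, so their lines cross.

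As shares of the summed CPM per kilobase of all 8 genes, Vcam1 held 50.6% and 53.7% in the YAP5SA libraries and 18.7% and 22.8% in the control libraries. Icam2 held 9.29% and 8.32% in YAP5SA, against 38.9% and 30.8% in control. These shares rest on the same exon lengths, carry the difference for which Vcam1 was picked and are a description only.

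Genes whose pattern over the 4 libraries was most like that of Vcam1 were found by the distance between log2 CPM values (pseudocount 0.1 CPM) centred on each gene's mean, among 12173 other genes with a mean of at least 5 CPM. The nearest was Dcun1d4, at a distance of 0.0356, with 125 and 144 CPM in YAP5SA and 20.1 and 25.1 CPM in control. Tppp3 followed at 0.131, with 53.5 and 59.2 CPM in YAP5SA and 9.15 and 10.05 CPM in control. Abhd17c was at 0.135, with 208 and 226 CPM in YAP5SA and 35.8 and 43.2 CPM in control. Of the other members Alcam was nearest, at 0.974, with rank 184 of the 12173, and Icam2 was farthest, at 3.34 and rank 11037.

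Gene lists follow, to be read beside the shares over all tested genes. With edgeR these shares were 3.12% higher and 0.999% lower, and 12.7% and 10.9% at an unadjusted p under 0.05. With DESeq2 they were 5.72% and 2.82%. The integrins that bind these molecules were measured as a list of 10 genes, all of them tested. Of these 1 rose and 0 fell (4 higher and 1 lower at an unadjusted p under 0.05, and 3 and 0 with DESeq2), with a median log2 fold change of 0.17. The gene that rose was Itga4, the alpha chain of a VCAM1 receptor. It was at 25.7 and 29.6 CPM in YAP5SA against 8.97 and 11.9 CPM in control (log2 fold change 1.41, SE 0.228, edgeR adjusted p = 0.0409). Its usual beta chain Itgb1 had a mean of 976 CPM in YAP5SA and 945 CPM in control (log2 fold change 0.05, SE 0.241, edgeR adjusted p = 0.928), and Itgb7, its partner in the MAdCAM-1 receptor, 3.11 CPM in YAP5SA and 4.16 CPM in control (edgeR adjusted p = 0.469). Itgb2, the beta chain of the ICAM1 receptors, had 56.3 and 75.5 CPM in YAP5SA and 26.8 and 16.5 CPM in control, and just missed the threshold (log2 fold change 1.60, SE 0.294, edgeR adjusted p = 0.0508). Itga9, another alpha chain of the list, had 72.7 and 83.5 CPM in YAP5SA and 93.6 and 156 CPM in control. It did not pass (log2 fold change -0.67, edgeR adjusted p = 0.219). Itgb1, Itgb7, Itgb2 and Itga9 were singled out after their values were seen.

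A list of 14 genes of leukocyte passage across the vessel wall held junction molecules and other surface molecules. Of the 14, 3 rose and 0 fell (6 and 3 at an unadjusted p under 0.05, and 5 and 0 with DESeq2). Their median was 0.12. Jam2, a junctional adhesion molecule, was at 798 and 976 CPM in YAP5SA and 126 and 193 CPM in control (log2 fold change 2.48, SE 0.299, edgeR adjusted p = 0.0284). Bcam, a laminin receptor, was at 317 and 380 CPM in YAP5SA and 132 and 146 CPM in control (edgeR adjusted p = 0.0356). The third, Mcam, which falls outside the naming rule, was also higher (log2 fold change 1.09, edgeR adjusted p = 0.0441). Pecam1 and Esam, which endothelial cells carry at their junctions, had log2 fold changes of -0.9973 and -1.02 without passing (edgeR adjusted p = 0.154 and 0.118), and were named after their values were seen.

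Of 17 genes for making selectin ligands 14 were tested, of which 2 rose and 0 fell (median 0.50; 6 and 0 at an unadjusted p under 0.05, and 4 and 0 with DESeq2). Tpst2, an enzyme that sulfates tyrosines, as needed on PSGL-1, was at 103 and 104 CPM in YAP5SA and 45.4 and 48.1 CPM in control (edgeR adjusted p = 0.0321). C1galt1, which extends O-linked sugars, was at 87.6 and 87.5 CPM in YAP5SA and 45.4 and 44.8 CPM in control (edgeR adjusted p = 0.0406). Fut7, a fucosyltransferase that leukocytes use for these ligands, was not tested, at a mean of 0.143 CPM in YAP5SA and 0.379 CPM in control.

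Chemokines, which activate integrins on rolling leukocytes, gave 3 higher and 1 lower of 19 tested, with a median of 1.58 (10 and 1 at an unadjusted p under 0.05, and 5 and 1 with DESeq2). Ccl12 was at 32.6 and 35.01 CPM in YAP5SA and 1.18 and 3.97 CPM in control (log2 fold change 3.78, SE 0.511, edgeR adjusted p = 0.0321). Ccl2, the main attractant of monocytes, was at 92.1 and 84.3 CPM in YAP5SA and 18.7 and 30.7 CPM in control (edgeR adjusted p = 0.0359), and Ccl7, outside the naming rule, also rose (log2 fold change 2.12, edgeR adjusted p = 0.0394). Cxcl12, which retains leukocytes and their progenitors in tissue, fell to 153 and 149 CPM in YAP5SA, against 463 and 357 CPM in control (log2 fold change -1.44, SE 0.211, edgeR adjusted p = 0.0354).

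Among 26 tested genes of NF-kB and cytokine signalling 1 rose and 0 fell, near the 3.12% and 0.999% of all tested genes. Their median was 0.24 (7 and 0 at an unadjusted p under 0.05, and 2 and 0 with DESeq2, near its 5.72% and 2.82%). The gene was Tnfaip3, an NF-kB target that restrains the pathway, at 33.4 and 29.2 CPM in YAP5SA and 12.0 and 10.97 CPM in control (log2 fold change 1.44, SE 0.191, edgeR adjusted p = 0.0316). Nfkbia, another target and inhibitor, had a mean of 60.2 CPM in YAP5SA and 64.8 CPM in control (log2 fold change -0.11, SE 0.419, edgeR adjusted p = 0.9005), and was singled out after its values were seen. Of 7 proteases and regulators that shed adhesion molecules from the cell surface, Adam9 rose (472 and 525 CPM in YAP5SA, 211 and 234 CPM in control; edgeR adjusted p = 0.0437) and 0 fell (median 0.46; 4 and 0 at an unadjusted p under 0.05, and 3 and 0 with DESeq2). Adam17, which cleaves several of these molecules, did not pass (log2 fold change 0.46, edgeR adjusted p = 0.193). Over these 6 pathway lists together, 11 of 90 tested genes rose and 1 fell. Without YAP5SA replicate 1 these were 1 and 0 (23 and 2 at an unadjusted p under 0.05), and without YAP5SA replicate 2 they were 0 and 0 (16 and 1). Leaving out either control replicate raised both counts, as it did over all tested genes.

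Markers of the cells that usually carry these molecules were measured beside them. Among 12 endothelial markers, 2 fell and 0 rose. Their median log2 fold change was -0.84, and 0 of the 12 were positive (0 higher and 9 lower at an unadjusted p under 0.05, and 0 and 2 with DESeq2). Their summed level was 1268 and 1190 CPM in YAP5SA and 2458 and 1579 CPM in control. Vwf was at 55.5 and 72.8 CPM in YAP5SA and 174 and 142 CPM in control (edgeR adjusted p = 0.0428), and Robo4 at 27.2 and 22.0 CPM in YAP5SA and 59.5 and 49.4 CPM in control (edgeR adjusted p = 0.0466). The log2 fold change of Icam2, -0.76, lay near that median, while Sele, at 0.65, and Icam1, at 0.97, lay above 0. The part of endothelial nuclei in the values of Sele and Icam1 was not tested.

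The 14 markers of macrophages and monocytes included 6 that rose and 0 that fell. Their median log2 fold change was 1.22 (11 and 0 at an unadjusted p under 0.05, and 10 and 0 with DESeq2). Their summed level was 1576 and 1884 CPM in YAP5SA and 965 and 657 CPM in control. Fcgr1, an Fc receptor gene, was at 27.0 and 24.3 CPM in YAP5SA and 6.61 and 7.27 CPM in control, and Cd14, whose protein helps sense bacterial lipopolysaccharide, at 51.8 and 55.1 CPM in YAP5SA and 18.7 and 14.4 CPM in control (edgeR adjusted p = 0.0266 and 0.0284). Selplg, Itga4, Itgb2 and Ccl12, which leukocytes express, had log2 fold changes of 1.30, 1.41, 1.60 and 3.78. The part of macrophage nuclei in the last 3 was not tested. Of 9 epicardial and mesothelial markers, a cell type that carries VCAM1, 8 were tested and 0 passed (4 higher and 3 lower at an unadjusted p under 0.05, and 3 and 0 with DESeq2), with a summed level of 233 and 268 CPM in YAP5SA and 172 and 131 CPM in control, and their part was not tested either.

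The remaining marker lists covered platelets, other leukocytes and cells of the heart wall. None of the 5 platelet, 3 neutrophil and 2 lymphocyte markers tested passed with edgeR (1 higher and 2 lower in all at an unadjusted p under 0.05, and 0 and 1 with DESeq2). Platelet and megakaryocyte markers, relevant to P-selectin, summed to 29.5 and 35.2 CPM in YAP5SA and 37.8 and 25.5 CPM in control. Neutrophil markers summed to 4.78 and 4.63 CPM in YAP5SA and 7.79 and 6.87 CPM in control, with Ly6g and Elane at 0 counts in all 4 libraries. Lymphocyte markers summed to 3.03 and 3.57 CPM in YAP5SA and 10.5 and 5.02 CPM in control. Without the B cell gene Cd79a, which had 7.15 CPM in control replicate 1, the sums were 2.63 and 2.89 CPM in YAP5SA and 3.35 and 3.97 CPM in control. Fibroblast markers summed to 3982 and 4898 CPM in YAP5SA and 6123 and 4661 CPM in control, and of the 10, 4 had positive fold changes, with a median of -0.39. Lum alone passed and was higher (edgeR adjusted p = 0.0394; 4 higher and 0 lower at an unadjusted p under 0.05, and 3 and 0 with DESeq2). Smooth muscle and pericyte markers summed to 1593 and 1738 CPM in YAP5SA and 1716 and 1535 CPM in control, and of the 8, 3 had positive fold changes, with a median of -0.54. Acta2 alone passed and was higher (edgeR adjusted p = 0.0284), with 1 higher and 3 lower at an unadjusted p under 0.05, and 1 and 2 with DESeq2. It made up a large part of the YAP5SA sums, at 712 and 917 CPM, against 158 and 97.5 CPM in control. The sums therefore do not stand for the list as a whole. Of the 10 cardiomyocyte markers 0 passed with edgeR (0 higher and 4 lower at an unadjusted p under 0.05, and 0 and 4 with DESeq2), with a median of -1.09. Over the 9 marker lists 8 of 72 tested genes rose and 2 fell, against 1 and 0 without YAP5SA replicate 1 (19 and 5 at an unadjusted p under 0.05) and 0 and 0 without YAP5SA replicate 2 (12 and 8). Both counts were larger without either control replicate, and so were those over all tested genes.

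**Figure D4:**
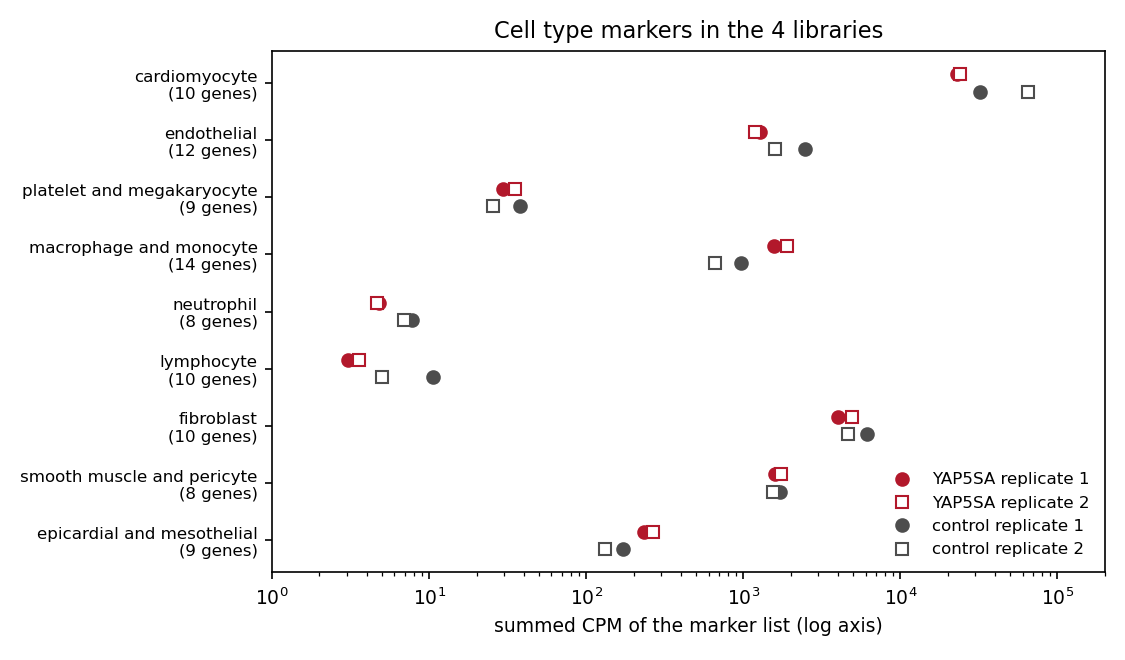
Summed CPM of each marker list in the 4 libraries on a log axis, with YAP5SA in red above control in grey. Macrophage and monocyte markers lay at 1576 and 1884 CPM in YAP5SA and at 965 and 657 CPM in control, and endothelial markers at 1268 and 1190 CPM in YAP5SA and at 2458 and 1579 CPM in control.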

How the data were processed

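Nuclear RNA-seq counts of 2 YAP5SA and 2 control libraries were used; the ATAC-seq and 4C-seq samples were not analysed here. The authors deposited raw counts per gene symbol, not normalized, from reads mapped with STAR to mm10 after a stranded library kit, per the labels' protocols. DESeq2 is also named there. Not given in the sources used here are the counting program, its strand setting and treatment of intronic reads, the annotation and the tool versions.

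Genes were filtered with filterByExpr (minimum count 10), scaled by TMM and tested in R 4.3.3 with edgeR 4.0.16 (quasi-likelihood) across all 17715 genes, without a replicate block, with Benjamini-Hochberg adjustment at 0.05. DESeq2 1.42.0 and limma 3.58.1 were alternatives, beside other scalings and filters, a replicate block and each library left out. SE is the log2 fold change over the root of F, and 95% intervals use the moderated degrees of freedom. Separate animals are not stated for the replicates. Each p-value therefore reflects only variation among these 4 libraries, possibly technical. Replicates differed beyond sampling noise (chi-square per gene 9.90 in YAP5SA and 38.4 in control). On simulated counts for this comparison (17327 genes tested), 65.2% of genes changed by 2 and 10.6% of genes changed by 1 on the log2 scale were called. The simulation gave each gene the same spread in both groups, whereas the data had 8.44% in YAP5SA and 34.3% in control. These shares are therefore a rough guide only. A count of 0 allows 3 counts, 0.202 and 0.228 CPM in the YAP5SA and 0.272 and 0.397 CPM in the control libraries, counting error only.

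Members and lists were chosen with earlier results of these data known. The naming rule took the 8 members, the 2 smallest adjusted p in each direction past the threshold of each list, and the 3 genes nearest to Vcam1. Coordinates, exon lengths and overlaps are from GENCODE M21 (GRCm38, called mm10); 44052 of 46983 symbols matched 1 gene.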

Additional observations from a re-analysis of the deposited data

How the results depend on the processing

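Over the 11 alternatives, none of the 7 tested members changed direction. With DESeq2 size factors, library totals alone, limma-voom or a minimum count of 30, Alcam and Icam1 were called and no other member tested. Other settings moved the counts of called genes from 553 higher and 177 lower. There were 1727 and 1689 with no filter on low counts and 1069 and 527 with DESeq2. With edgeR and a single library left out the counts ran from 27 to 3749 higher and from 0 to 3554 lower, lowest without YAP5SA replicate 2 (974 higher and 540 lower at an unadjusted p under 0.05) and highest without control replicate 2. Members called, Vcam1 aside, ran from 0 to 4 higher and from 0 to 1 lower in those fits. They were 0 higher without either YAP5SA library, where 3 had an unadjusted p under 0.05, and 4 higher and 1 lower without control replicate 2. Genes tested numbered 18799 and 18849 without YAP5SA replicates 1 and 2, and 18559 and 19069 without control replicates 1 and 2. Leaving out control replicate 1 also raised the counts, over all tested genes and over the members. Member counts in these fits are to be read beside the counts over all tested genes. No conclusion about the 6 members is drawn from them. In each such fit the single library left in a group takes its spread from the other group, so the wide control spread enters where a YAP5SA library is left out. The part of that spread in the lost calls was not tested, nor was the cause of the other changes.

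With the replicate number as a block, 321 genes were higher and 112 lower, and 1 member, Alcam, was higher; Icam1 missed at an adjusted p of 0.0863. In the same fit the 6 pathway lists gave 5 higher and 0 lower, with Itga4, Mcam, Bcam, Tpst2, C1galt1, Adam9 and Cxcl12 no longer called, and the 9 marker lists 7 and 0, with Vwf, Robo4, Lum and C1qc no longer called and Cx3cr1 newly called. Same-numbered libraries did not deviate together (r = -0.09 across genes), so the numbers are not taken to pair the libraries. Madcam1 rests on too few counts for a test, and the intervals of Sele and Selp include 0.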
